A study of Arabidopsis thaliana with 8 samples.

Results

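The UDP-glycosyltransferase (UGT) genes outside the UGT73 and UGT76E groups and UGT76B1 were followed in Arabidopsis leaves after 2 neonicotinoid insecticides and salicylic acid. The members were the genes whose annotated symbol is UGT followed by a number, read from probe sets that match a single gene, with 1 probe set for each locus (the brightest over all arrays). The rule gave 35 genes out of 13286 loci with a single-gene probe set, and each of the 35 had only 1 such probe set, so no choice between probe sets was needed. The 12 other UGT genes measured this way, of the UGT73 and UGT76E groups and UGT76B1, are used only for comparison. All plants were wild-type Columbia-0 and 4 weeks old at treatment. They received 4 mM imidacloprid, 4 mM clothianidin, 4 mM salicylic acid or no treatment, and fully expanded leaves were taken 4 days later. Each of the 4 groups held 2 Affymetrix arrays, from independent experiments. The untreated plants are not described as having received a carrier solution, so any effect of applying a solution cannot be told apart from that of the agent.

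UGT enzymes move a sugar from a UDP-sugar, most often glucose, onto a small molecule. In plants the acceptors include flavonoids, lignin precursors, hormones such as abscisic acid, auxin, cytokinin and salicylic acid, glucosinolate precursors, sterols, and foreign chemicals such as herbicides. The added sugar usually makes the molecule more soluble, often less active, and ready for storage in the vacuole. For foreign compounds it is the conjugation step of detoxification, after oxidation or hydrolysis has exposed a reactive group.

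Values are log2 expression per probe set, so a difference of 1 is a doubling, and levels of different genes are not compared because probes differ in brightness. The arrays resembled each other in overall level, with means between 5.23 and 5.27. Replicates correlated over all probe sets at 0.969 with imidacloprid, 0.963 with clothianidin, 0.919 with salicylic acid and 0.955 untreated. The salicylic acid arrays therefore stood furthest apart. Over the 35 genes the standard deviation of the replicate difference was 0.71 with imidacloprid, 0.62 with clothianidin, 1.13 with salicylic acid and 0.74 untreated. The difference between 3′ and 5′ actin probes, which grows as RNA degrades, was 0.87 and 1.11 with imidacloprid, 1.04 and 1.75 with clothianidin, 0.74 and 1.41 with salicylic acid, and 0.85 and 2.17 untreated. In each group the second array had the larger value. The leaf label was checked on Rubisco activase (RCA), which lay between 13.22 and 14.37 on all arrays, and on SBPASE of the Calvin cycle, the 2 of 7 listed leaf markers that were measured. SBPASE lay at 10.53 and 9.85 with imidacloprid, 11.98 and 11.48 with clothianidin, 12.28 and 9.79 with salicylic acid, and 12.41 and 11.65 untreated. PYK10, a beta-glucosidase best known from roots, lay at 4.91 and 2.61 with imidacloprid, 6.40 and 4.61 with clothianidin, 9.09 and 4.49 with salicylic acid, and 5.92 and 4.59 untreated; it was the 1 measured of 3 listed root markers.

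The 35 genes fell into 10 numbered families: 9 in UGT71, 5 each in UGT84 and UGT85, 4 in UGT72, 3 each in UGT74, UGT76 and UGT78, and 1 each in UGT80, UGT87 and UGT88. Signal near background was taken as a mean over the 8 arrays at or under 2.49, the average 25th percentile of the arrays. By that limit 26 genes were measurable and 9 were not. The 9 were UGT71C1, UGT71C2, UGT71C3, UGT72E2, UGT72E3, UGT76D1, UGT84A1, UGT84B1 and UGT84B2. They include genes for the monolignol glucosyltransferases UGT72E2 and UGT72E3 and for the auxin glucosyltransferase UGT84B1. Over all 8 arrays UGT72E3 ranged over only 0.04 and UGT84B2 over 0.07. At the other end, the means over the 8 arrays were 10.56 for UGT88A1 and 10.23 for UGT74B1, values of probe signal that do not rank the genes' transcripts. UGT74F1, for a salicylic acid glucosyltransferase, was just inside the limit at 2.57, as was UGT71B8 at 2.62, and UGT76D1, whose enzyme acts on dihydroxybenzoic acids, was just outside it at 2.49.

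**Figure D1:**
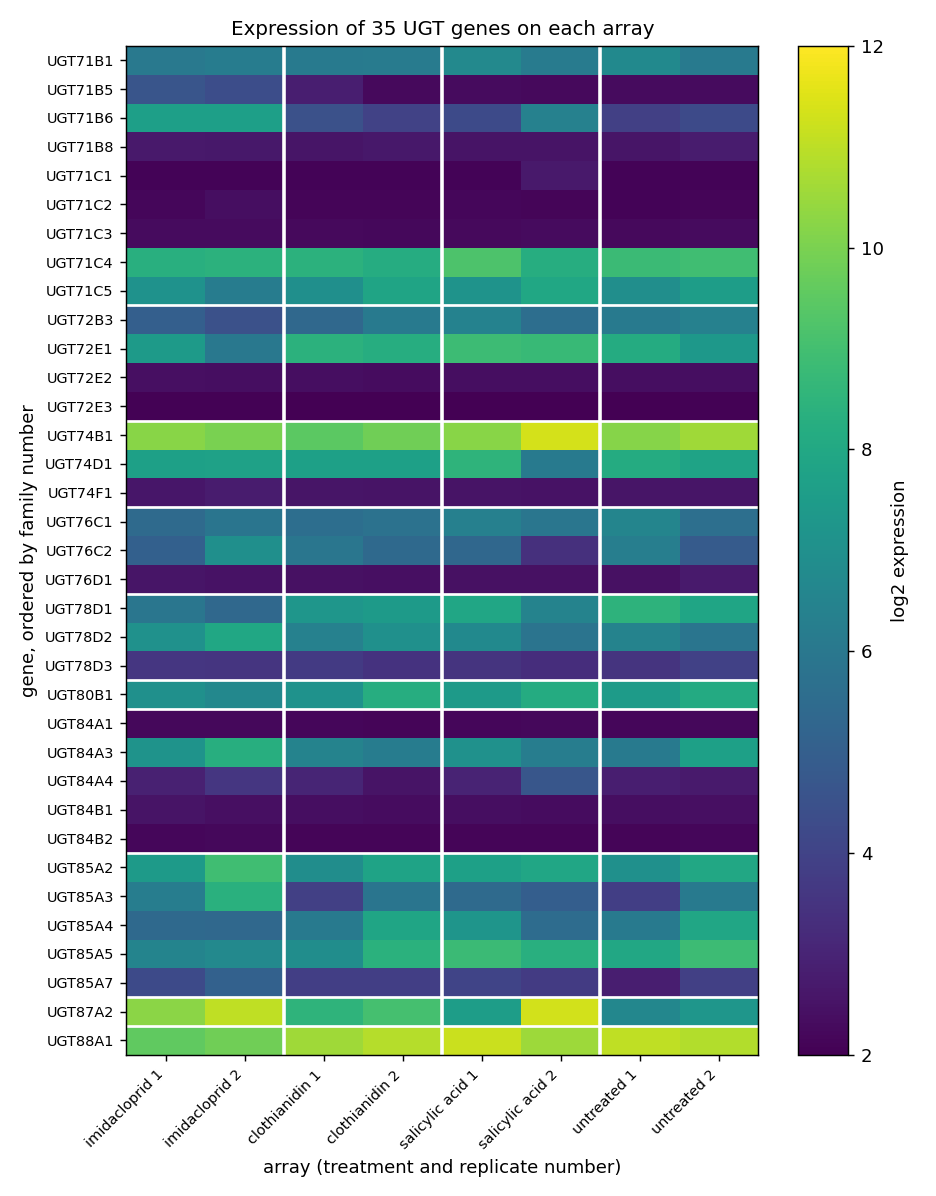
Log2 expression (colour) of the 35 UGT genes (rows, ordered by family number, white lines between families) on each of the 8 arrays (columns, by treatment and replicate number). The rows of the 9 genes near background keep nearly 1 shade, ranging by at most 0.59, while many other rows vary, UGT87A2 most (by 4.68). UGT87A2 and UGT71B6 are brighter and UGT78D1 is darker on both imidacloprid arrays than on both untreated arrays.

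Imidacloprid was set against untreated leaves to see which of these genes differ with the insecticide. The largest positive differences were in UGT87A2, UGT71B6 and UGT85A3, and the largest negative ones in UGT78D1, UGT85A5 and UGT85A4. Of the 35 genes 6 were higher by more than 1 on the log2 scale and 6 lower by more than 1, against 11.4% and 13.9% of all 22746 probe sets. None of the 35 passed limma's test at an adjusted p under 0.05, a threshold that 0.312% of all probe sets passed. At an unadjusted p under 0.05 there were 9 of 35, or 25.7%, beside 19.3% of all probe sets. The imidacloprid arrays lay wholly above the untreated arrays in 14 members and wholly below in 8, against 40.2% and 23.8% of all probe sets. These shares are near the background, and 8 of the 14 were measurable. The median difference of the 35 was 0.01, and that of all loci 0.02. Over the 26 measurable members it was -0.23, beside 0.02 for all probe sets above the limit of signal near background. The other UGT genes, of the UGT73 and UGT76E groups and UGT76B1, had a median difference of 3.74, with 10 of 12 higher by more than 1 and 0 lower. Of these 12, UGT76E1 passed limma's test (adjusted p = 0.0103). All 12 were above the limit of signal near background, by a mean that includes the imidacloprid arrays. The difference between the 2 sets of genes was not tested. The sets were chosen with earlier results of these data known, so their difference is given as description only. On the same arrays the leaf gene SBPASE was lower with imidacloprid and RCA lay at 13.85 and 13.65, against 14.29 and 13.96 untreated; the part of this shift in the results was not tested.

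UGT87A2 (AT2G30140), the sole measured gene of its family, whose enzyme is known for effects on flowering time, had the largest difference of the 35. It lay at 10.25 and 11.03 with imidacloprid, against 6.62 and 7.25 untreated. Both imidacloprid arrays stood far above both untreated arrays, by 3.71 on the log2 scale (SE 1.27; 95% interval 0.39 to 7.02; limma adjusted p = 0.220), a 13.0-fold difference. It was also the only member higher on all 6 treated arrays than on both untreated arrays, a pattern found in 3.46% of all probe sets. Its interval is wide because the fit pools the spread of all groups, and its salicylic acid replicates differed by 3.75. Within replicate number 1 UGT87A2 differed by 3.63 and within number 2 by 3.78. The actin values with imidacloprid and untreated were 0.87 and 0.85 in number 1, and 1.11 and 2.17 in number 2. The part of RNA quality in the difference was not tested.

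UGT71B6 (AT3G21780), for an enzyme that glucosylates abscisic acid, lay at 7.64 and 7.63 with imidacloprid, against 3.91 and 4.25 untreated. The replicates agreed closely and the groups were far apart. The difference was 3.55 (SE 0.73; 95% interval 1.65 to 5.45; limma adjusted p = 0.108). Fitted on the imidacloprid and untreated arrays alone, UGT71B6 passed the test (limma adjusted p = 0.0467). It did not pass with an intensity trend and robust prior, with replicate number as a block, with median centring or with quantile normalization. With 1 array left out its difference ran between 3.38 and 3.72. UGT71B5 (AT4G15280) lay at 4.65 and 4.36 with imidacloprid, against 2.28 and 2.29 untreated, a level near background. It differed by 2.22 (SE 0.21; 95% interval 1.66 to 2.78) and came closest of the 35 to the threshold, at a limma adjusted p of 0.0528. UGT71B5 passed with an intensity trend and robust prior (limma adjusted p = 0.0280), with median centring (0.0463) and with quantile normalization (0.0472). It did not pass with only the 4 arrays compared or with replicate number as a block. With 1 array left out its difference ran between 2.08 and 2.37. It also passed with dim probe sets left out by their mean. There UGT71B5, above the limit of 2.49 on only 3 arrays, stayed in through the imidacloprid arrays, so that setting adds no support. Because untreated leaves were near background, the size of its difference is not exact. The replicate SD of UGT71B5 was 0.0065 untreated and 0.022 with salicylic acid, both near background. It was 0.21 with imidacloprid and 0.41 with clothianidin. The fit pools these spreads, so its SE, intervals and p values rest partly on arrays at background.

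The other members higher by more than 1 were UGT85A3, UGT78D2 and UGT85A7. UGT85A3 (AT1G22380) lay at 6.25 and 8.36 with imidacloprid, against 3.86 and 6.08 untreated. Its groups did not overlap, but 6.25 and 6.08 almost met, and the replicates within a group differed by about as much as the groups, so the difference of 2.34 had an SE of 1.20 (limma adjusted p = 0.372). It was 1.23 without untreated replicate 1 and 1.29 without imidacloprid replicate 2, and 3.45 at most with 1 array left out. Within replicate number 1 UGT85A3 differed by 2.40 and within number 2 by 2.28. Replicate 2 was its higher array with imidacloprid, with clothianidin and untreated, but not with salicylic acid. UGT78D2 (AT5G17050), for the glucosyltransferase that acts on flavonols and anthocyanidins, lay at 7.06 and 7.97 with imidacloprid, against 6.46 and 5.88 untreated, a difference of 1.34 (SE 0.50; limma adjusted p = 0.247) that was 0.89 without imidacloprid replicate 2. UGT85A7 (AT1G22340) lay at 4.23 and 5.12, against 2.85 and 3.89 untreated. It differed by 1.30 (SE 0.46; limma adjusted p = 0.226), but by 0.85 with imidacloprid replicate 2 left out and by 0.78 with untreated replicate 1 left out.

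The largest negative difference was that of UGT78D1 (AT1G30530), whose enzyme adds rhamnose to flavonols. It lay at 5.91 and 5.36 with imidacloprid, against 8.46 and 7.88 untreated. Both imidacloprid arrays were the lowest of the 8, and the difference was -2.53 (SE 0.54; 95% interval -3.94 to -1.13; limma adjusted p = 0.116). It differed by -2.55 within replicate number 1 and -2.52 within number 2. UGT88A1 (AT3G16520) lay at 9.57 and 9.83 with imidacloprid, against 11.04 and 10.85 untreated. The groups did not overlap, and the difference was -1.25 (SE 0.26; 95% interval -1.94 to -0.56; limma adjusted p = 0.116).

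UGT85A5 (AT1G22370) lay at 6.49 and 6.72 with imidacloprid, against 8.01 and 8.84 untreated, a difference of -1.81 (SE 0.58; limma adjusted p = 0.199). UGT72B3 (AT1G01420), of a family in which several enzymes act on lignin precursors, lay at 5.04 and 4.47, against 6.10 and 6.38 untreated, a difference of -1.49 (SE 0.42; limma adjusted p = 0.166). Both of these genes were lower on both imidacloprid arrays than on either untreated array. UGT85A4 (AT1G78270) lay at 5.41 and 5.37, against 6.10 and 7.91 untreated, and its untreated replicates differed by more than the groups (difference -1.62, SE 0.98). Without untreated replicate 2 the difference was -0.72, and without untreated replicate 1 it was -2.53. UGT72E1 (AT3G50740), for a glucosyltransferase of lignin-precursor aldehydes, overlapped, at 7.45 and 5.99, against 8.13 and 7.33 untreated (difference -1.02, SE 0.54). Without imidacloprid replicate 2 it was -0.29, without untreated replicate 1 it was -0.62, and without imidacloprid replicate 1 it was -1.74.

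**Figure D2:**
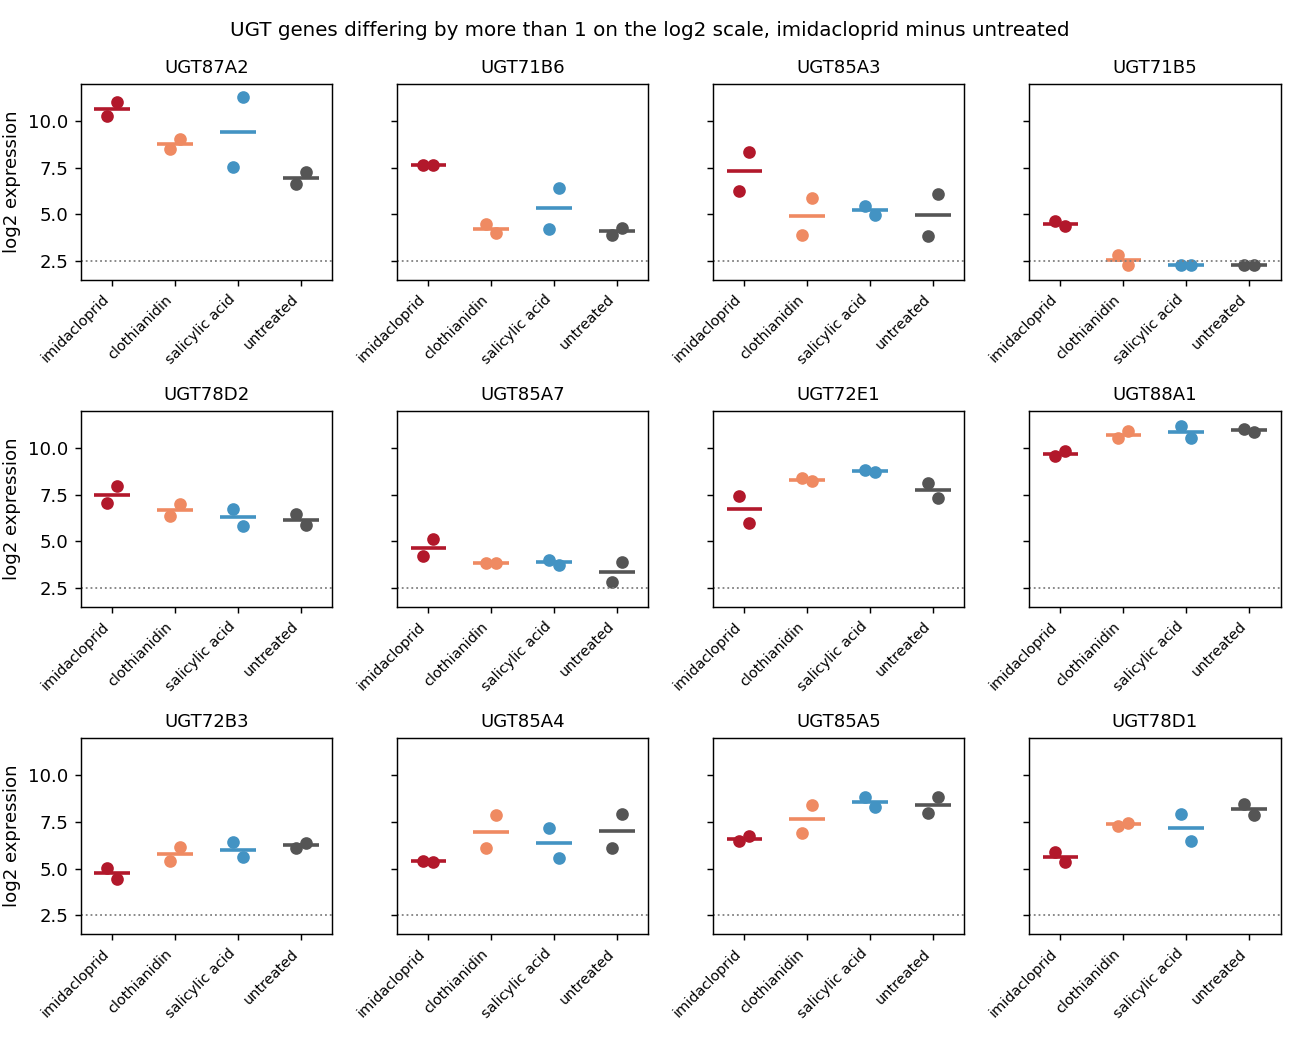
Log2 expression of the 12 UGT genes whose imidacloprid and untreated means differed by more than 1, in order of that difference. Points are single arrays, horizontal bars are group means (n = 2) and the dotted line marks 2.49, the limit of signal near background. Imidacloprid points lie apart from untreated points in every panel but UGT72E1, and the salicylic acid points of UGT87A2 lie at 7.56 and 11.31.

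By family number, the 9 UGT71 genes had 2 members above 1 with imidacloprid, UGT71B6 and UGT71B5, and 0 below -1, and their median difference was 0.01. In UGT72, 0 of 4 members were above 1 and 2 below -1, UGT72B3 and UGT72E1. Only these 2 of the 4 were measurable, and UGT72E1 overlapped with untreated leaves. GT72B1 (UGT72B1), no member by its symbol, differed by 1.11 (SE 0.30) in the other direction. The 3 UGT78 genes split 1 and 1, and the 5 UGT85 genes split 2 and 2. No member of UGT74, UGT76, UGT80 or UGT84 differed by more than 1 in either direction. All 5 UGT84 genes had positive differences, between 0.02 and 0.80, as did 8262 of all 13286 loci. Only 2 of the 5 were measurable, UGT84A3 and UGT84A4, with differences of 0.80 (SE 0.69) and 0.49 (SE 0.61). In UGT85 the remaining gene, UGT85A2, lay at 7.44 and 8.93 with imidacloprid, against 7.0027 and 8.01 untreated, with overlap. Its difference of 0.68 became -0.07 without imidacloprid replicate 2. In UGT71 the brightest gene, UGT71C4, lay at 8.32 and 8.41, against 8.80 and 8.92 untreated, lower on both arrays but by only 0.50 (SE 0.34).

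Grouped by the role of the enzymes, the differences with imidacloprid ran both ways. The 3 members for glycosyltransferases of flavonols were UGT78D2, UGT78D1 and UGT78D3. UGT78D3, whose enzyme adds arabinose, lay at 3.57 and 3.54 with imidacloprid, against 3.52 and 3.94 untreated. The gene for the glucose-adding UGT78D2 thus had a positive difference and that for the rhamnose-adding UGT78D1 a negative one, with 1 gene each. Of the 3 genes 0 passed the adjusted threshold. At an unadjusted p under 0.05 there was 1 in each direction, a level that 19.3% of all probe sets reached. The same list holds AT1G06000, no member, at 6.60 and 5.46 with imidacloprid, against 4.61 and 6.05 untreated, with overlap. AT4G14090, also no member, was near background at 2.26 and 2.24 with imidacloprid and 2.23 and 2.22 untreated. It lay at 2.24 and 4.57 with clothianidin and at 5.00 and 2.69 with salicylic acid.

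Of the genes for enzymes of phenylpropanoids, the route to lignin and sinapate esters, 6 of 8 listed were members, and 3 of these were measurable. UGT84A3 (AT4G15490), whose enzyme makes glucose esters of hydroxycinnamic acids, lay at 7.14 and 8.28 with imidacloprid, against 6.13 and 7.70 untreated. The groups overlapped, with a difference of 0.80 (SE 0.69). Its relative UGT84A4 lay at 2.92 and 3.59, against 2.82 and 2.72 untreated. With UGT72E1 at -1.02, the 6 members had a median difference of 0.02, beside 0.02 for all loci, and 0 passed at an unadjusted p under 0.05.

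Of the hormone-conjugating enzymes, 7 of 12 listed were members, and 6 of these were measurable. UGT71B6 was the only one of the 7 that differed by more than 1 or reached an unadjusted p under 0.05. UGT71C5 (AT1G07240), whose enzyme also glucosylates abscisic acid, lay at 7.10 and 6.18 with imidacloprid, against 6.93 and 7.57 untreated, so that the groups overlapped. It differed by -0.61 (SE 0.53), beside 3.55 for UGT71B6, so the genes for the 2 abscisic acid enzymes had opposite signs. UGT76C1 and UGT76C2, for cytokinin N-glucosyltransferases, differed by -0.43 (SE 0.36) and 0.42 (SE 1.01). UGT74D1, for an auxin glucosyltransferase, differed by -0.28 (SE 0.79). UGT74F1 lay at 2.60 and 2.75, against 2.55 and 2.56 untreated. Of the 12 members beyond 1, UGT71B6, UGT78D1, UGT78D2 and UGT72E1 belong to these role groups. No role group had more than 1 member at an unadjusted p under 0.05 in 1 direction.

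UGT74B1 (AT1G24100), for the glucosyltransferase of the glucosinolate core, lay at 10.21 and 9.9991 with imidacloprid, against 10.17 and 10.58 untreated. Its difference of -0.27 (SE 0.42) was within the spread. UGT80B1 (AT1G43620), for a sterol glucosyltransferase, lay at 7.02 and 6.68, against 7.47 and 8.11 untreated, lower on both arrays with a difference of -0.94 (SE 0.49; limma adjusted p = 0.383). The same list holds AT2G31790, which the annotation used here does not name as a UGT and which is therefore no member. It lay at 7.03 and 6.39 with imidacloprid, against 8.93 and 8.76 untreated, a difference of -2.14 (SE 0.76; limma adjusted p = 0.231), without overlap.

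Many UGT genes arose by tandem duplication, and 21 of the 35 stand in 8 runs with at most 2 protein-coding genes between neighbours. In 3 runs a gene that differed by more than 1 stood beside one of the opposite sign. Only in the UGT85 run did both such neighbours differ by more than 1. In the run UGT85A7, UGT85A2, UGT85A5 and UGT85A3 on chromosome 1, which no other protein-coding gene interrupts, the differences in order along the chromosome were 1.30, 0.68, -1.81 and 2.34. UGT85A5 therefore lay lower with imidacloprid while UGT85A3, next to it, lay higher. On chromosome 3 UGT71B6 differed by 3.55, while UGT71B1 and UGT71B8 on either side differed by -0.32 (SE 0.28) and -0.02 (SE 0.08). On chromosome 5 UGT78D2 differed by 1.34 and UGT78D3 by -0.18. The runs UGT71C5 to UGT71C3, UGT71C2 with UGT71C1, UGT84A1 to UGT84A4, UGT84B2 with UGT84B1, and UGT76C2 with UGT76C1 held no member that differed by more than 1. The differences between neighbours were not tested.

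With clothianidin, the other neonicotinoid, at the same dose, the differences from untreated leaves ran between -0.81 and 1.83. They rest on the same 2 untreated arrays as the imidacloprid differences. Only UGT87A2 differed by more than 1, in 1 of 35 members, beside 4.8% of all probe sets above 1 and 3.03% below -1. It lay at 8.49 and 9.05 with clothianidin, against 6.62 and 7.25 untreated. Both clothianidin arrays were higher, by 1.83 (SE 1.27; 95% interval -1.48 to 5.15; limma adjusted p = 0.996). The smallest p of the 35 belonged to UGT74B1, at 9.47 and 9.83 with clothianidin, against 10.17 and 10.58 untreated. Its arrays did not overlap, and the difference was -0.72 (SE 0.42; limma adjusted p = 0.996).

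UGT78D1 lay at 7.27 and 7.47 with clothianidin, below both untreated arrays (8.46 and 7.88), a difference of -0.81 (SE 0.54). UGT72E1 lay above both, at 8.42 and 8.22, against 8.13 and 7.33 untreated (difference 0.58, SE 0.54). UGT71C4 and UGT74D1 also lay below both untreated arrays, with differences of -0.55 and -0.32. In all, 2 members lay wholly above and 4 wholly below the untreated arrays, beside 10% and 14.9% of all probe sets. In limma's test 0 of 35 passed, as did 0% of all probe sets. At an unadjusted p under 0.05 there were also 0, beside 2.63% of all probe sets. Both UGT71 genes that were higher with imidacloprid overlapped with untreated leaves here. UGT71B6 lay at 4.49 and 3.99 with clothianidin, against 3.91 and 4.25 untreated, and UGT71B5 at 2.84 and 2.26, against 2.28 and 2.29 untreated. The median difference was -0.03, and that of all loci -0.02.

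Salicylic acid is itself an acceptor of UGT enzymes, and the treatment asks which of the genes differ when the hormone is supplied. UGT87A2 again had the largest difference, at 7.56 and 11.31 with salicylic acid, against 6.62 and 7.25 untreated. Both arrays were higher, but replicate 2 by far more than replicate 1. The difference was 2.50 (SE 1.27; limma adjusted p = 0.975), and it was 4.37 without salicylic acid replicate 1 and 0.62 without replicate 2. UGT71B6 lay at 4.23 and 6.40, against 3.91 and 4.25 untreated, so only replicate 2 stood apart; the difference of 1.23 (SE 0.73) became 2.31 without replicate 1 and 0.15 without replicate 2.

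UGT72E1 had close replicates, at 8.84 and 8.75 with salicylic acid, against 8.13 and 7.33 untreated (difference 1.06, SE 0.54; limma adjusted p = 0.975). UGT84A4 lay at 2.99 and 4.66, against 2.82 and 2.72 untreated (difference 1.05, SE 0.61). In the other direction UGT76C2 lay at 5.34 and 3.38, against 6.29 and 4.89 untreated (difference -1.23, SE 1.01), with overlap. UGT74D1 had replicates on either side of the untreated arrays, at 8.50 and 6.09, against 8.17 and 7.82 untreated. UGT85A4 did likewise within replicate numbers, with differences of 1.09 in number 1 and -2.37 in number 2. In UGT87A2, UGT71B6 and UGT84A4 the second salicylic acid array carried most of the difference. That array also had the lowest SBPASE value of the 8 arrays, 9.79, while the first had the highest PYK10 value, 9.09. Their part in these results was not tested beyond the values without an array.

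In the fit of all 8 arrays 0 of 35 members passed limma's test with salicylic acid, as did 0% of all probe sets, and 0 of 35 reached an unadjusted p under 0.05, beside 3.38%. Of the 35, 4 were higher by more than 1 and 1 lower, against 5.28% and 4.55% of all probe sets. Arrays did not overlap in 3 higher and 8 lower members, against 8.28% and 34.7%, and 3 of the 8 lower ones were measurable. The median difference was -0.0047, and that of all loci -0.02. UGT74F1, for a salicylic acid glucosyltransferase, lay at 2.52 and 2.50, against 2.55 and 2.56 untreated, values close to background in both groups.

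**Figure D3:**
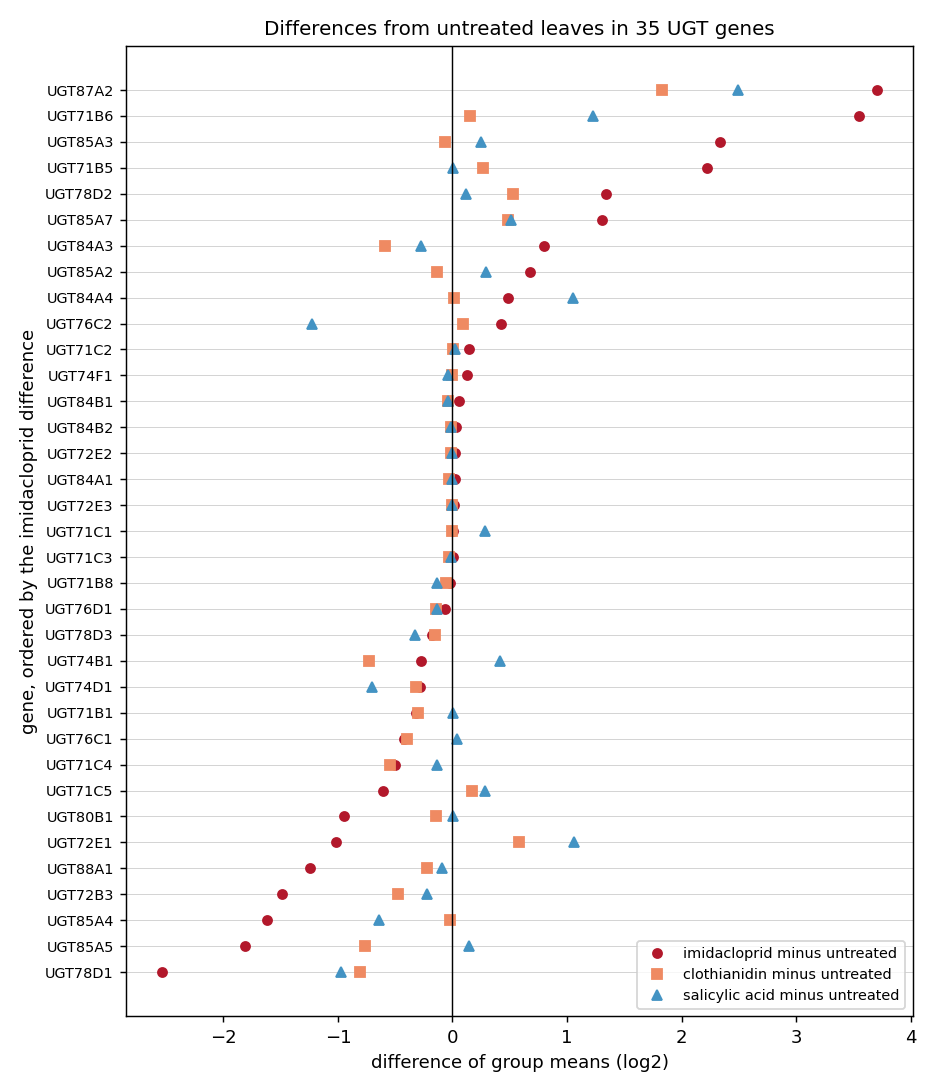
Differences of group means from untreated leaves (log2, horizontal axis) for the 35 UGT genes, ordered by the imidacloprid difference, with circles for imidacloprid, squares for clothianidin and triangles for salicylic acid. All 3 share the same untreated arrays. The imidacloprid circles spread between -2.53 and 3.71 and the clothianidin squares between -0.81 and 1.83.

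The 2 insecticides were compared directly, as 1 pair at the same dose and time. Imidacloprid carries a chloropyridine ring and a closed imidazolidine ring, whereas clothianidin carries a chlorothiazole ring and an open chain. Imidacloprid minus clothianidin, 5 of 35 members were above 1 and 6 below -1, beside 7.96% and 9.83% of all probe sets. Their median difference was 0.04, as it was for all loci. None passed limma's test, beside 0.0967% of all probe sets, and 5 of 35 reached an unadjusted p under 0.05, beside 13.8%. Imidacloprid arrays lay wholly above clothianidin arrays in 19 members and wholly below in 7, against 43.9% and 20% of all probe sets.

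UGT71B6 lay at 7.64 and 7.63 with imidacloprid, against 4.49 and 3.99 with clothianidin, with a difference of 3.40 (95% interval 1.49 to 5.30; limma adjusted p = 0.224). UGT71B5 lay at 4.65 and 4.36, against 2.84 and 2.26, a difference of 1.96 (95% interval 1.40 to 2.52; limma adjusted p = 0.108), again with a value near background on the lower side. UGT78D1 lay at 5.91 and 5.36, against 7.27 and 7.47, a difference of -1.73 (95% interval -3.13 to -0.33). These genes, with UGT72E1 at -1.60 (-3.02 to -0.18) and UGT88A1 at -1.03 (-1.72 to -0.34), were the 5 whose interval excluded no difference. The intervals are not adjusted for the number of probe sets. The 5 are therefore the same 5 of 35 that reached an unadjusted p under 0.05 in limma's test, beside 13.8% of all probe sets.

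UGT87A2, the member that was higher with both compounds, lay at 10.25 and 11.03 with imidacloprid, against 8.49 and 9.05 with clothianidin. The arrays did not overlap, but the interval of the difference of 1.87 ran from -1.44 to 5.19. For the auxin gene UGT74D1 the compounds gave nearly equal means of 7.71 and 7.67, and the interval still ran from -2.02 to 2.097. For UGT71C4 it ran from -0.83 to 0.92 around 0.05, and for UGT78D3 from -0.47 to 0.43 around -0.02. A missed threshold here does not show that the compounds act alike.

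**Figure D4:**
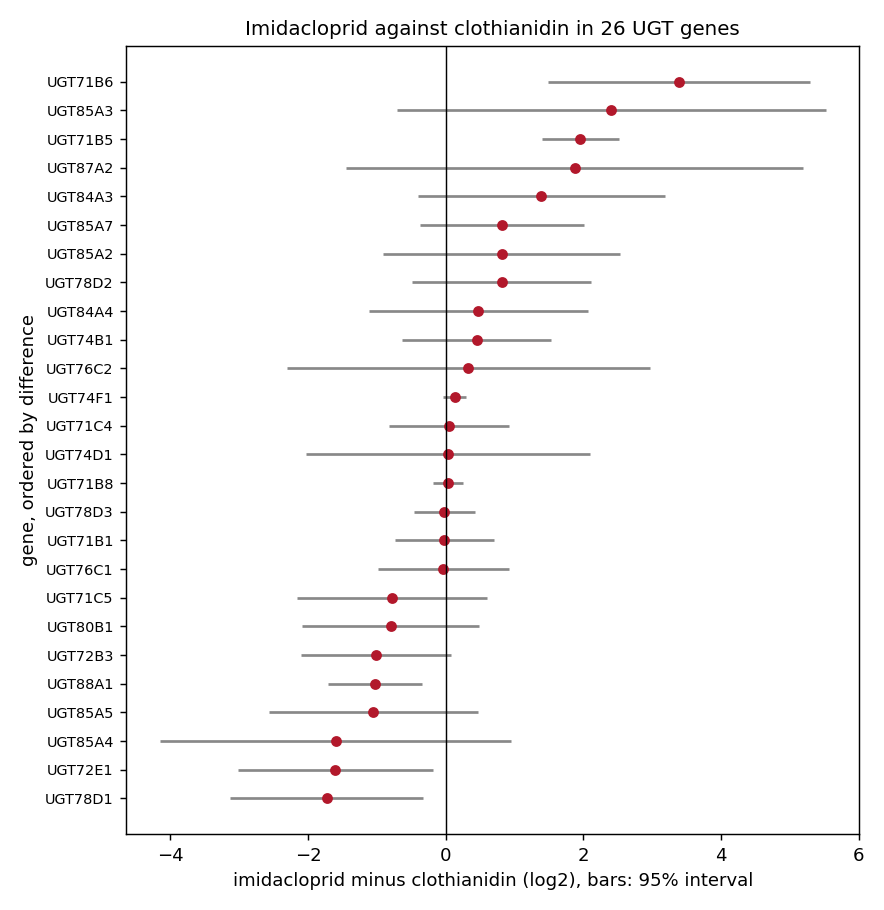
Imidacloprid minus clothianidin (log2, horizontal axis) for the 26 UGT genes above the limit of signal near background, ordered by difference. Points are differences of group means (n = 2 each) and bars are 95% intervals from limma, not adjusted for the number of probe sets. The bars of UGT71B6, UGT71B5, UGT88A1, UGT72E1 and UGT78D1 do not cross 0.

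A further 4 loci carry a UGT name only among their synonyms and so are no members. Of these GT72B1 (UGT72B1), whose enzyme conjugates chlorinated phenols and anilines as well as lignin precursors, lay at 10.11 and 10.12 with imidacloprid, against 8.67 and 9.35 untreated. The imidacloprid replicates agreed and lay above both untreated arrays, by 1.11 (SE 0.30; limma adjusted p = 0.154). With clothianidin GT72B1 differed by -0.31 and with salicylic acid by -0.23. UF3GT (UGT79B1), of anthocyanin synthesis, lay at 2.59 and 2.62 with imidacloprid, 2.62 and 4.62 with clothianidin, 6.11 and 2.83 with salicylic acid, and 2.42 and 2.53 untreated, so that 1 clothianidin array and 1 salicylic acid array stood above the rest. SGT (UGT80A2), for the other sterol glucosyltransferase, differed by -0.23 with imidacloprid, 0.05 with clothianidin and 0.03 with salicylic acid. The last, AT5G54010 (UGT79B6), lay between 2.69 and 2.87 on all arrays.

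The steps around glycosylation were read from lists, with 11.4% of all probe sets above 1, 13.9% below -1 and 19.3% at an unadjusted p under 0.05 as the background. Of 12 glutathione transferases of the tau and phi classes, 1 was above 1 and 3 below -1 with imidacloprid, with 0 past limma's threshold and 3 at an unadjusted p under 0.05. Of 24 genes listed as cytochrome P450s, 5 were above 1 and 3 below -1, with 0 past the threshold and 5 at an unadjusted p under 0.05. One gene of that list, CYP71 (AT3G44600), is a cyclophilin that shares only the symbol, and it is 1 of the 2 lower genes among those 5. Within these 2 lists the largest differences were -4.03 in GSTU20 and 3.32 in CYP71B23. Of 20 beta-glucosidases, which remove sugars again, 6 were above 1 and 3 below -1. BGLU45 and BGLU46, for enzymes that cleave glucosides of lignin precursors, were higher, by 5.26 and 3.80 (limma adjusted p = 0.0334 and 0.0283), and 6 of the 20 reached an unadjusted p under 0.05. Their median differences were 0.01, 0.04 and 0.05, beside 0.02 for all loci. Of the 17 genes listed for UDP-sugar supply and the 3 for malonylation, 1 each was measured: USP differed by -0.56 with imidacloprid, and AT5MAT was near background. In leaf tissue, a lower level can reflect fewer cells of a type or less RNA per cell, and these cannot be told apart.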

How the data were processed

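Total RNA of mature leaves was hybridised to 8 one-colour Affymetrix arrays, 2 for each of 4 groups. Each probe set has 1 deposited log2 value per array; the authors used RMA and affy per the submitters' processing notes, with versions, order, background step and later centring not given in the sources used here. Of 22810 probe sets, 64 controls were left out and 22746 fitted. Genes were named through the platform's probe table, joined by gene identifier to TAIR10.1, in which 13436 probe sets matched 1 locus, and 8730 were left unnamed. The files name no genome build, so no coordinates are given.

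limma 3.58.1 (R 4.3.3) was fitted with lmFit and eBayes to all 8 arrays, with a mean for each group and 4 residual degrees of freedom. The tests were two-sided, with Benjamini-Hochberg adjustment over all probe sets of a contrast, and intervals are at 95%. With 2 arrays a group, an exact permutation test of 1 gene cannot reach the threshold, and the number of arrays limits precision. Replicates came from independent experiments. Over all probe sets, replicate differences correlated between -0.00 and 0.52 across pairs of groups, not above 0.1 in every pair. Over the 35 members the correlations ran between -0.08 and 0.61, the highest for clothianidin and untreated. Replicate numbers were therefore not taken to pair the arrays, and differences within a number are given as description only.

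Named were called members, the 8 highest and 6 lowest differences per contrast, members with all treated arrays on 1 side of the untreated, the brightest of each family, and the members of role lists; other lists are given by counts, with called genes or the 3 largest differences. The members and lists were chosen with earlier results of these data known. Alternatives covered the prior, the arrays fitted, replicate number as a block, leaving out dim probe sets, centring, quantile normalization, probe set choice and single arrays left out. Figures were drawn with matplotlib 3.10.9 (Python 3.11.15).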

Additional observations from a re-analysis of the deposited data

How the results depend on the processing

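The 26 measurable members rest on 2 arrays a group, and the 9 near background could not show a lower level. In the contrast of imidacloprid with untreated leaves, 71 of all probe sets passed in the fit of 8 arrays. There were 174 with only the 4 arrays compared, 43 with replicate number as a block, 186 without dim probe sets, 189 with median centring and 0 on 6 arrays, without the 2 arrays of the highest actin difference (untreated 2 and clothianidin 2). With 1 array left out the number ran between 1 (without untreated 1) and 465 (without either salicylic acid array). Between the insecticides 22 passed, and 37 with an intensity trend and robust prior, 0 with only the 4 arrays, 2 with the block, 0 on the 6 arrays, and 1 to 279 with 1 array left out. For clothianidin against untreated 0 passed, and 0 to 72 with 1 array left out; for salicylic acid 0, and 0 to 82.

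Of the 35 members 0 passed with imidacloprid against untreated. The number was 1 with the trend and robust prior (UGT71B5, limma adjusted p = 0.0280), 1 with only the 4 arrays (UGT71B6), 1 without dim probe sets, 1 with median centring, 1 with quantile normalization (UGT71B5 each time, which passed the dim filter through its imidacloprid arrays), and 0 to 2 with 1 array left out. Replicate numbers were not taken to pair the arrays, as replicate differences correlated above 0.1 between some groups only; with the block 0 of 35 members passed in that contrast. The median of the members with imidacloprid was -0.23 without dim probe sets and 0.082 with centring. With clothianidin it was -0.10, -0.11 and, on the 6 arrays, 0.0045, and between the insecticides 0.20 with centring, which moved the median of all probe sets to 0.0954 with imidacloprid, -0.104 with clothianidin and 0.194 between them. On the 6 arrays only the highest and lowest differences of each contrast were followed by gene. Among these, differences turned sign with clothianidin in UGT76C2 (-0.34), UGT78D2 (-0.075) and UGT84A3 (0.32). With salicylic acid they did so in UGT84A3 (0.50) and UGT85A4 (0.27).

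Single genes were followed under the alternatives only in 56 named differences, the highest and lowest of each contrast. Other genes named in the text were not followed. Among the 56, these differences changed sign with 1 array left out. With imidacloprid UGT85A2 ran from -0.069 to 1.43. With clothianidin UGT71B5 ran from -0.024 to 0.55, UGT71B6 from -0.092 to 0.40, UGT71C5 from -0.25 to 0.59, UGT76C2 from -0.61 to 0.79, UGT84A3 from -1.375 to 0.19 and UGT85A7 from -0.034 to 1.00. With salicylic acid UGT71C1 ran from -0.0054 to 0.58, UGT74B1 from -0.15 to 0.98, UGT74D1 from -1.905 to 0.50, UGT84A3 from -1.06 to 0.50, UGT85A2 from -0.21 to 0.80, UGT85A4 from -1.54 to 0.27 and UGT85A7 from -0.0040 to 1.03. Of 839 alternative values for 56 named differences, 804 kept direction and side of the threshold, 11 passed it newly and 24 turned sign, with 1 of the 24 for imidacloprid against untreated and 0 between the insecticides. The cause was not tested. Outside the 56, other signs also depended on 1 array. UGT76C2 differed by 0.42 with imidacloprid, but imidacloprid replicate 1 alone, at 5.05, lay below the untreated mean of 5.59. UGT76C1 differed by -0.43, but its imidacloprid mean of 5.67 lay above untreated replicate 2 alone, at 5.64. UGT78D3 differed by -0.18, but its imidacloprid mean of 3.55 lay above untreated replicate 1 alone, at 3.52. Leaving out either array of a group outside a contrast gives the same result for that contrast, so such settings are not separate results. Choosing probe sets by variance changed nothing, since each member had 1.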
